A study of Homo sapiens with 6 samples.

Results

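The hepatocyte identity genes are 38 genes, chosen by their GENCODE symbols among the 62700 genes of the expression table: 13 transcription factors of liver cells, 16 secreted plasma proteins, 7 metabolic enzymes and 2 proteins of the hepatocyte surface. Their levels were read in SK-Hep1, a human cell line that the study used beside its liver cancer lines and described as being of endothelial origin. RNA–Seq of poly-A-selected RNA covered 3 control libraries, whose titles name a control shRNA while their genotype label is WT, and 3 libraries of cells with a knockdown of the long non-coding RNA *RAB30-DT*. The methods describe stable lines made by lentiviral transduction and puromycin selection, so a difference between the groups is one between selected cell populations. Nothing in the labels says that the 3 libraries of a group came from separate cultures, and the p-values below then measure only the spread between libraries, which may be technical. The study asked what *RAB30-DT* does to liver cancer cells. The question here was how much of the hepatocyte programme these cells express, and whether its level differs with the knockdown.

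Hepatocytes are the main secretory and metabolic cells of the liver. A network of transcription factors that bind each other's genes, among them HNF4A, the FOXA factors, CEBPA, ONECUT1, PROX1 and nuclear receptors such as NR5A2 and NR1H4, keeps the genes of plasma proteins and of liver metabolism active. Hepatocytes release albumin, apolipoproteins, fibrinogen and protease inhibitors into the blood, and they carry the urea cycle, gluconeogenesis and the cytochrome P450 enzymes that break down drugs.

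Levels are given in TPM, the number of transcripts relative to the library's total, corrected for the length of the gene, so that levels of different genes can be set side by side. Read numbers cannot be recovered from TPM, so library depth is unknown, and a gene without a value above 0 is described as listed at 0. All 13 of the genes that every cell uses, such as *ACTB* and *GAPDH*, were at 10 TPM or more in the mean of the control libraries. Between 20127 and 21675 genes per library were above 0, and between 14 and 20 of these were hepatocyte identity genes. *RAB30-DT* itself had 18.16, 11.51 and 13.91 TPM in the control libraries and 11.94, 10.85 and 6.5 TPM in the knockdown libraries, so the groups overlapped. Its log2 fold change was −0.55 (standard error 0.27, limma adjusted p = 0.355), and the reduction of the targeted RNA did not pass the test in these libraries. The study also reports the efficiency of the knockdown in SK-Hep1 by quantitative PCR, without giving the values in its text.

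Most of the hepatocyte programme was silent or nearly so in SK-Hep1. In the mean of the control libraries, 22 of the 38 genes (57.9%) were under 0.1 TPM, 6 were between 0.1 and 1 TPM, 9 were between 1 and 10 TPM, and 1 gene, *SERPINA1*, exceeded 10 TPM. Of all 20046 protein-coding genes, 32.0% were under 0.1 TPM and 58.3% reached 1 TPM, against 26.3% of the identity genes. In all 6 libraries, 15 of the 38 genes (39.5%) were listed at 0, compared with 20.8% of the protein-coding genes. These 15 were *HNF4A*, *PROX1*, *ALB*, *TTR*, *APOA2*, *APOB*, *APOC3*, *APOH*, *FGA*, *FGG*, *HP*, *CYP3A4*, *G6PC1*, *PCK1* and *GPC3*. At the other end, 14 genes were above 0 in every library. The part that remained differed by role, as 4 of 13 transcription factors, 3 of 16 plasma proteins, 2 of 7 enzymes and 1 of 2 surface proteins reached 1 TPM in control cells. The plot of level classes shows these counts beside those of other genes.

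**Figure D1:**
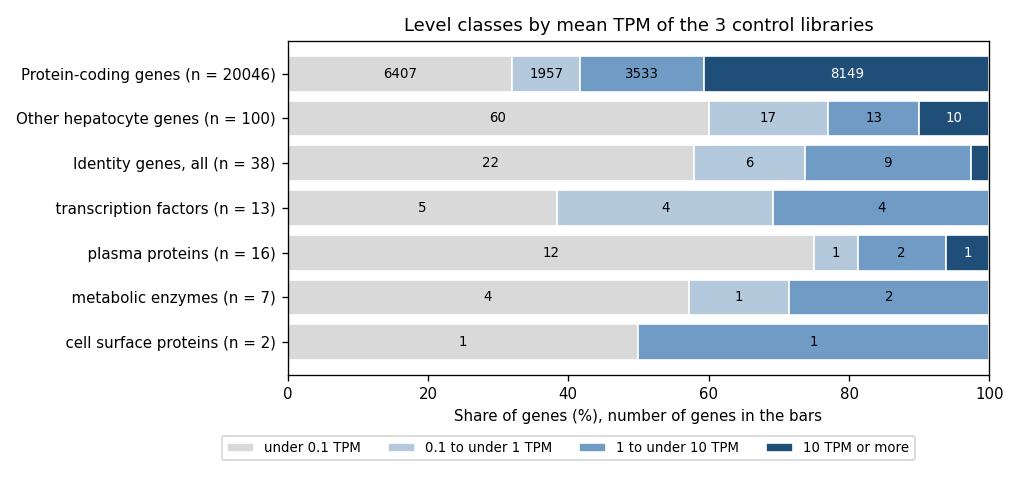
Share of genes in 4 level classes (horizontal axis, percent), from the mean TPM of the 3 control libraries, for all protein-coding genes, for 100 other hepatocyte genes and for the 38 identity genes in all and by role, with the number of genes written in the bars. Of the 38 identity genes, 22 lay under 0.1 TPM and 10 reached 1 TPM, of which *SERPINA1* alone exceeded 10 TPM.

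Among the genes that remained, *SERPINA1* stood highest. Its control mean of 22.0 TPM was above that of 58.5% of the genes that reached 1 TPM, whereas *PCK2*, with 9.49 TPM, was above 37.3% and *CEBPA*, with 3.74 TPM, above 20.0%. The control libraries of *SERPINA1* lay entirely above those of *PCK2*, and those of *PCK2* entirely above those of *CEBPA*. From *CEBPA* downwards the order was *CPS1*, *GATA4*, *GATA6*, *FOXA1*, *APOE*, *AFP* and *ASGR1*, and each neighbouring pair in it overlapped in the control libraries. *SERPINA1* supplied between 41.6% and 45.9% of the summed TPM of the 38 genes in the control libraries and between 53.8% and 60.0% in the knockdown libraries. Without it, the sum was 24.54 to 33.62 TPM in control cells and 23.46 to 30.2 TPM in knockdown cells, and these ranges overlapped. In bulk RNA, a lower level in every cell and a smaller share of cells that express a gene cannot be told apart.

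The comparison of knockdown with control cells found no identity gene that changed. Only 7 of the 38 genes, *FOXA1*, *CEBPA*, *GATA4*, *GATA6*, *SERPINA1*, *CPS1* and *PCK2*, had a mean of at least 1 TPM over the 6 libraries and entered the test, and this count leaves out the 31 lower genes. limma with Benjamini–Hochberg adjustment over the 14020 genes tested called 0 of these 7, and 1 of them, *SERPINA1*, had an unadjusted p under 0.05. Over all genes tested, 146 (1.04%) were called, so a count of 0 in 7 genes is close to that background. An unadjusted p under 0.05 was found for 2350 of these 14020 genes. Of the 7 genes, 4 had fitted values above and 3 below control. The median of their log2 fold changes was 0.0079, where that of all genes tested was −0.037. The knockdown libraries did not overlap the control libraries for 1 of the 7 genes, compared with 23.3% of all genes tested.

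**Figure D2:**
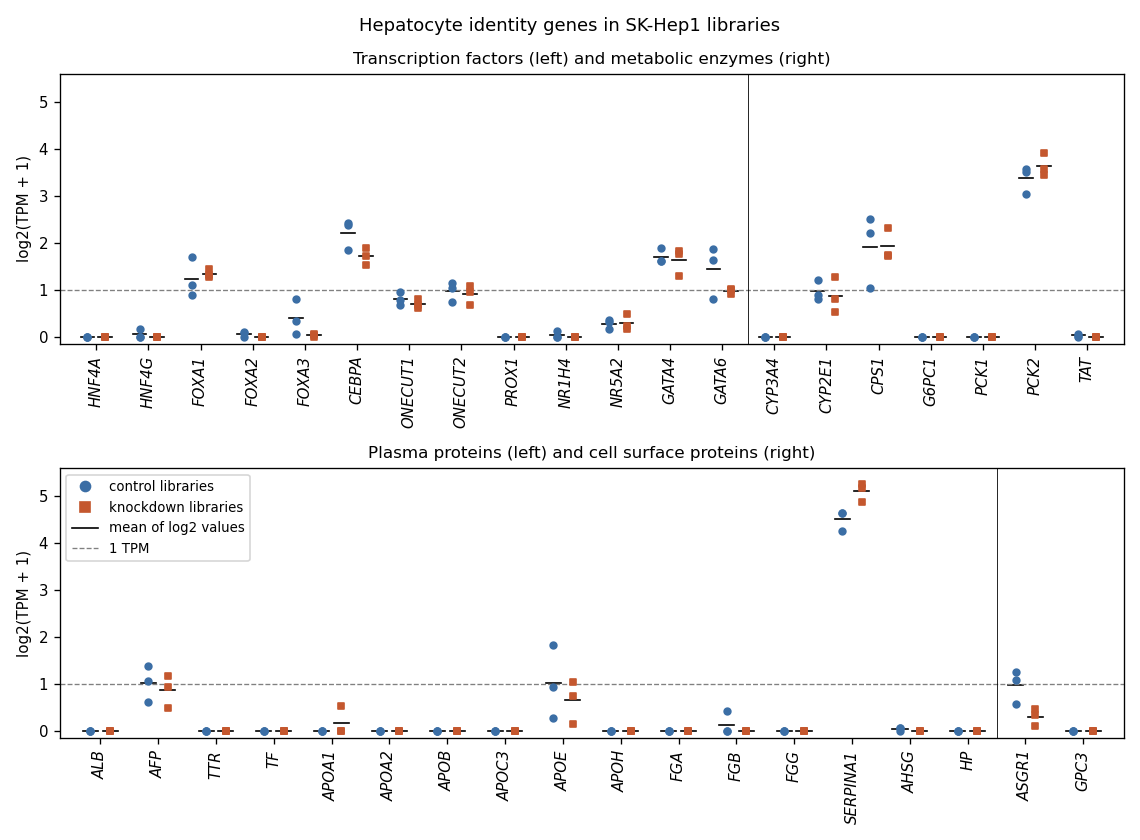
Level of each identity gene as log2(TPM + 1) (vertical axis), with 1 point per library for the 3 control (circles) and 3 knockdown libraries (squares), a black line at the mean of each group and a dashed line at 1 TPM. Of the 7 genes tested, *SERPINA1* has groups that stand apart, and 15 genes lie at 0 in every library.

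Of the transcription factors, *HNF4A*, a nuclear receptor at the centre of the hepatocyte network, was listed at 0 in all libraries, and so was *PROX1*, a homeobox factor of early liver cells that lymphatic endothelium also uses. *HNF4G*, a relative of *HNF4A*, was above 0 in 1 library only, control replicate 1, with 0.13 TPM. *NR1H4*, the bile acid receptor FXR, reached at most 0.1 TPM. The FOXA factors, which open liver chromatin for other factors, were unequal: *FOXA2* reached at most 0.07 TPM and *FOXA3* at most 0.75 TPM, both in control replicate 2. *FOXA3* was between 0.1 and 1 TPM in the mean of the control libraries and under 0.1 TPM in that of the knockdown libraries. *FOXA1* remained, with 0.86, 2.27 and 1.14 TPM in control and 1.71, 1.5 and 1.43 TPM in knockdown libraries. All 3 knockdown values of *FOXA1* fell inside the control range, and its log2 fold change was 0.11 (standard error 0.31, 95% interval −0.59 to 0.82, limma adjusted p = 0.885).

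*CEBPA*, a leucine zipper factor that holds hepatocytes in a differentiated, non-dividing state, was the highest transcription factor of the list. It had 2.61, 4.23 and 4.37 TPM in the control libraries and 1.88, 2.72 and 2.28 TPM in the knockdown libraries. Its groups overlapped only by knockdown replicate 2, which lay just above control replicate 1. The log2 fold change of *CEBPA* was −0.51 (standard error 0.26, 95% interval −1.12 to 0.10), with a limma adjusted p of 0.374 and an exact two-sided permutation p of 0.2. *CEBPA* shares 659 exon bases with a long non-coding gene on the opposite strand, ENSG00000267580, which had 0.590 TPM in control cells. Whether the counting used strand is not given in the sources used here, so reads of the pair may have been mixed.

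The GATA factors act in liver, heart and other endodermal and mesodermal tissues. *GATA4* had 2.07, 2.7 and 2.06 TPM in control and 1.47, 2.56 and 2.42 TPM in knockdown libraries, and the groups overlapped. Its log2 fold change was −0.07 (standard error 0.27, 95% interval −0.68 to 0.55, limma adjusted p = 0.921). *GATA6* had 2.12, 2.68 and 0.74 TPM in control and 0.89, 1.03 and 0.99 TPM in knockdown libraries. Control replicate 3 of *GATA6* lay below all knockdown libraries, and the other two control libraries lay above them. The log2 fold change of *GATA6* was −0.46 (standard error 0.35, 95% interval −1.26 to 0.33), with a limma adjusted p of 0.536. limma's arrayWeights, which gives less weight to libraries that depart from their group, brought the limma adjusted p to 0.0475. This was the lowest of a range that reached 0.833 over the alternatives. The arrayWeights fit called 3218 of all 14020 genes tested.

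The remaining transcription factors lay between 0.1 and 1 TPM in both groups. *ONECUT1* (HNF6), a factor of bile duct and hepatocyte precursors, reached at most 0.93 TPM, and *ONECUT2* reached at most 1.22 TPM, both in a control library. *NR5A2* (LRH-1), a nuclear receptor of bile acid synthesis, reached at most 0.4 TPM, in knockdown replicate 3. *ONECUT1*, *ONECUT2* and *NR5A2* were above 0 in all 6 libraries, unlike *HNF4A* and *PROX1*.

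The plasma proteins were the most silent group, as 12 of 16 were under 0.1 TPM in control cells and 9 were listed at 0 in every library. Albumin (*ALB*), the main protein of blood plasma, was listed at 0 throughout, as were *TTR*, the carrier of thyroid hormone and retinol-binding protein, *APOH*, a phospholipid-binding glycoprotein, and *HP*, which binds free haemoglobin. *TF*, the iron carrier transferrin, reached 0.01 TPM in 1 library, although it shares 122 exon bases on the same strand with *SRPRB*, which had a control mean of 54.9 TPM. *AHSG* (fetuin-A), an inhibitor of mineral formation, reached at most 0.05 TPM. Of the apolipoproteins, *APOA2*, *APOB* and *APOC3*, which belong to high-density, very-low-density and triglyceride-rich particles, were listed at 0 throughout. *APOA1*, the main protein of high-density lipoprotein, was above 0 only in knockdown replicate 1, with 0.46 TPM. Of the 3 chains of fibrinogen, *FGA* and *FGG* were listed at 0 in all libraries, and *FGB* was above 0 only in control replicate 1, with 0.34 TPM.

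*AFP*, *APOE* and *SERPINA1* were the plasma proteins that remained. *AFP*, the fetal counterpart of albumin and a marker of liver tumours, lies 9656 bases from *ALB* on chromosome 4. *AFP* had 0.53, 1.11 and 1.63 TPM in control and 1.27, 0.92 and 0.41 TPM in knockdown libraries, and *ALB* was listed at 0 in the same libraries. *APOE*, a ligand of lipoprotein receptors that macrophages and many other cells also make, had 0.21, 0.93 and 2.54 TPM in control and 0.69, 0.12 and 1.06 TPM in knockdown libraries. The groups overlapped for both genes, which lay under the mean of 1 TPM needed for the test. For *AFP*, *APOE* and *ASGR1*, all libraries are given because their control means reached 1 TPM, a choice made after their values were seen.

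*SERPINA1* encodes alpha-1 antitrypsin, the inhibitor of neutrophil elastase in plasma. Its level was 23.91, 23.96 and 18.11 TPM in the control libraries and 35.12, 37.19 and 28.25 TPM in the knockdown libraries. Every knockdown library was thus above every control library, and in both groups replicate 3 was the lowest. On average, control cells had 22.0 ± 3.36 TPM (SD, n = 3) and cells with the knockdown 33.5 ± 4.68 TPM (SD, n = 3). The log2 fold change of *SERPINA1* was 0.59 (standard error 0.20, 95% interval 0.14 to 1.04), its unadjusted limma p was 0.0171, and its adjusted p was 0.192. An exact two-sided permutation test gave p = 0.1, the smallest that 3 libraries against 3 allow. Among the alternatives, the log2 fold change of *SERPINA1* lay between 0.46 and 0.70 and its limma adjusted p between 0.0192, with arrayWeights, and 0.547. With arrayWeights, 3218 of all 14020 genes tested were called.

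*ALB*, *AFP* and *SERPINA1*, a silent, a low and the highest plasma protein gene, are shown with the sequence near their starts. The windows from 250 bases before to 50 bases after a start, from RefSeq on GRCh38.p14, are printed 5′ to 3′ on the strand of the gene, with each CpG, the pair of bases that can be methylated, in capitals. The window of *ALB* is chr4:73404037-73404336 on the plus strand, that of *AFP* is chr4:73435971-73436270 on the plus strand, and that of *SERPINA1* is chr14:94388553-94388852 on the minus strand.
ALB: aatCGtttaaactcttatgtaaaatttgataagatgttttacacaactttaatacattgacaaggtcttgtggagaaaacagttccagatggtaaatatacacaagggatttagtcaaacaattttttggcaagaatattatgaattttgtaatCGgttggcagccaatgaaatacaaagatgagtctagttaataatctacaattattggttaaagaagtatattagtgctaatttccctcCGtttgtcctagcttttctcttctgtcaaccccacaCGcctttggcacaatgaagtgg
AFP: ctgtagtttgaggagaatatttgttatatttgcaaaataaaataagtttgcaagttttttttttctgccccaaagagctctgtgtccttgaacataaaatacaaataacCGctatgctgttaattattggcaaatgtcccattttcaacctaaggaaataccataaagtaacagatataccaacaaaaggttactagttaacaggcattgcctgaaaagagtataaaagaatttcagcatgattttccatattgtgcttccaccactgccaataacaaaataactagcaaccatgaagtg
SERPINA1: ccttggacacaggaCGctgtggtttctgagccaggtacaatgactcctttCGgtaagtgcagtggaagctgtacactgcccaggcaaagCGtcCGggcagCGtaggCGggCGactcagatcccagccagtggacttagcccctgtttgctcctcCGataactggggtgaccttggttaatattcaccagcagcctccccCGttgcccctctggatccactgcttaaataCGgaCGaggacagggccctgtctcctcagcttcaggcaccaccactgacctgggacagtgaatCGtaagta
The window of the silent *ALB* gene holds 4 CpG, that of *AFP* 1 and that of *SERPINA1* 12. TATAAA, known as the TATA box, begins 29 bases before the start of *AFP*, and it is in neither of the other windows shown. *SERPINA1* has a second window at an upstream start, chr14:94390586-94390885 on the minus strand, with 8 CpG. The gene-level TPM do not tell transcripts from the different starts apart.

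Of the metabolic enzymes, 3 were listed at 0 in all libraries: *CYP3A4*, the main drug-metabolizing cytochrome P450 of adult liver, *G6PC1*, which releases free glucose, and *PCK1*, the cytosolic enzyme of gluconeogenesis. *TAT*, which breaks down tyrosine, reached at most 0.05 TPM. *CYP2E1*, which oxidizes ethanol, reached at most 1.43 TPM, in knockdown replicate 2, and shares 2207 exon bases with *SYCE1* on the opposite strand.

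*PCK2*, the mitochondrial counterpart of *PCK1*, was the highest enzyme. *PCK2* is used by many proliferating and non-hepatic cells as well. It had 10.88, 10.31 and 7.27 TPM in control and 9.89, 14.13 and 10.82 TPM in knockdown libraries. The groups overlapped, with knockdown replicate 2 as the highest and control replicate 3 as the lowest library. The log2 fold change of *PCK2* was 0.27 (standard error 0.23, 95% interval −0.26 to 0.80, limma adjusted p = 0.585). The promoter window of *PCK2*, chr14:24094061-24094360 on the plus strand of GRCh38.p14 in RefSeq, is shown with each CpG in capitals. It holds 23 of them, compared with 4 in *ALB* and 1 in *AFP*.
PCK2: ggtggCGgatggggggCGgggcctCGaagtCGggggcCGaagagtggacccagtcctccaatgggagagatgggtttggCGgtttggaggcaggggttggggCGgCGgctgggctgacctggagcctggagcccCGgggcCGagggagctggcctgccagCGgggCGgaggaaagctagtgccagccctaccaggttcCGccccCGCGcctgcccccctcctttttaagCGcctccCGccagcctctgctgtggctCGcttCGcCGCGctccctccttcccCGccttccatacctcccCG

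*CPS1*, the mitochondrial enzyme that starts the urea cycle, had 4.71, 3.6 and 1.06 TPM in control and 2.35, 3.96 and 2.31 TPM in knockdown libraries. Control replicate 3 was the lowest library of *CPS1*, and the knockdown libraries lay within the control range. Its log2 fold change was 0.01 with a standard error of 0.41 (95% interval −0.93 to 0.94, limma adjusted p = 0.995), so a change of nearly 1 in either direction lies within the interval.

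Of the surface proteins, *GPC3*, a heparan sulfate proteoglycan that is common on liver cancer cells, was listed at 0 in all libraries. *ASGR1*, a subunit of the asialoglycoprotein receptor that clears glycoproteins from blood, had 0.5, 1.4 and 1.13 TPM in control and 0.38, 0.08 and 0.28 TPM in knockdown libraries. All knockdown libraries of *ASGR1* lay below all control libraries. Its mean over the 6 libraries was too low for the main test, and in the fit without a filter its log2 fold change was −0.67 (standard error 0.22, limma adjusted p = 0.318).

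Several genes near the limit of detection differed between groups only in where they were listed. Of the 38 genes, 7 were above 0 in at least 1 control library and listed at 0 in all knockdown libraries, namely *HNF4G*, *FOXA2*, *NR1H4*, *TF*, *FGB*, *AHSG* and *TAT*. The reverse held for 1 gene, *APOA1*. Among all 20046 protein-coding genes, the corresponding numbers were 609 and 681. None of these 8 identity genes exceeded 0.46 TPM in any library. By group means, 10 identity genes were at 1 TPM or more in control and 6 in knockdown cells, and the 4 that lay across this limit were *GATA6*, *AFP*, *APOE* and *ASGR1*. Counted in single libraries, the number was 7, 11 and 9 in control and 8, 8 and 7 in knockdown libraries, which overlap. Over all genes of the table, 13828 reached 1 TPM in the control mean and 13995 in the knockdown mean.

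**Figure D3:**
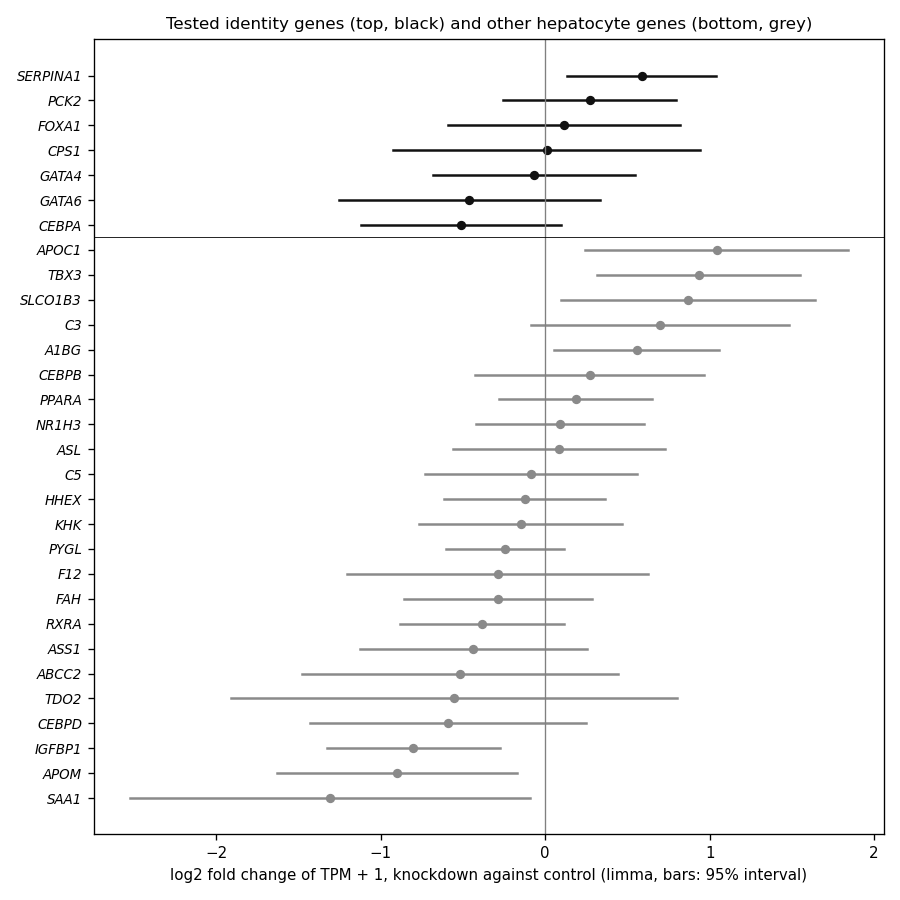
Log2 fold change of TPM + 1 in knockdown against control cells (horizontal axis), with the 95% interval from limma as bars, for the 7 identity genes tested (black) and 23 of the 24 other hepatocyte genes tested (grey). The interval of *SERPINA1*, 0.14 to 1.04, lies above 0, and those of the other 6 identity genes cross 0.

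A wider list of 100 other hepatocyte genes gave a similar picture of levels, with 60 under 0.1 TPM, 23 at 1 TPM or more in control cells and 31 listed at 0 in every library. The 8 of 14 further transcription factors that reached 1 TPM compare with 4 of 13 among the identity genes. The 5 highest were *IGFBP1*, a secreted binder of insulin-like growth factors (121 TPM), *PYGL*, the liver form of glycogen phosphorylase (109 TPM), *CEBPB*, a relative of *CEBPA* induced in the acute phase (57.6 TPM), *ASL*, an enzyme of the urea cycle (38.7 TPM), and *A1BG*, a plasma glycoprotein (25.8 TPM). Of the 24 genes tested, limma called 0, and 7 had an unadjusted p under 0.05, against 2350 of all 14020 genes tested. Fitted values were higher for 9 and lower for 15, and the median of the 24 log2 fold changes was −0.20. For 8 of the 24 the groups did not overlap, where 23.3% of all genes tested did not.

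*IGFBP1* had 102.14, 93.99 and 168.17 TPM in control and 65.15, 66.26 and 69.19 TPM in knockdown libraries, and all knockdown libraries lay below all control libraries. Its log2 fold change was −0.80 (standard error 0.23, limma adjusted p = 0.142). *TBX3*, a T-box factor of liver development, had 14.91, 16.43 and 7.85 TPM in control and 25, 24.64 and 24.63 TPM in knockdown libraries, with a log2 fold change of 0.93 (standard error 0.27, limma adjusted p = 0.145). *TBX3* was chosen after its values were seen. Neither *IGFBP1* nor *TBX3* was called.

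Promoter windows were found in RefSeq for 25 of the 38 genes, with 34 windows among 35116 in the table. No window was used for *TTR*, *PCK1*, *HNF4G*, *GATA4*, *APOA1*, *GPC3*, *TAT*, *FOXA2*, *PROX1*, *APOB*, *HP*, *ASGR1* and *APOC3*. The CpG ratio compares the number of CpG in a window with the number its C and G would give by chance, and the window with the highest ratio stood for each gene, a choice made after the data were seen, like the limit of 0.6. The median ratio was 0.192 in the 11 identity genes under 0.1 TPM, 0.736 in the 6 between 0.1 and 1 TPM, and 0.643 in the 8 at 1 TPM or more. A ratio of 0.6 or more was found in 1 of the 11 genes under 0.1 TPM, which was *TF*, and in 4 of the 8 at 1 TPM or more, which were *CEBPA*, *FOXA1*, *GATA6* and *APOE*. *APOE* reached the limit in only 1 window (0.688), and its other windows had ratios of 0.254 and 0.397. Among protein-coding genes, 33.8% of those under 0.1 TPM and 91.5% of those at 1 TPM or more had such a ratio. *SERPINA1* (0.488), *PCK2* (0.598), *CPS1* (0.298) and *AFP* (0.123) were therefore genes with a level of at least 1 TPM and a ratio under the limit. By role, the median was 0.824 in 9 transcription factors, 0.298 in 5 enzymes and 0.199 in 11 plasma proteins, so role and level overlap in this comparison and cannot be told apart.

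**Figure D4:**
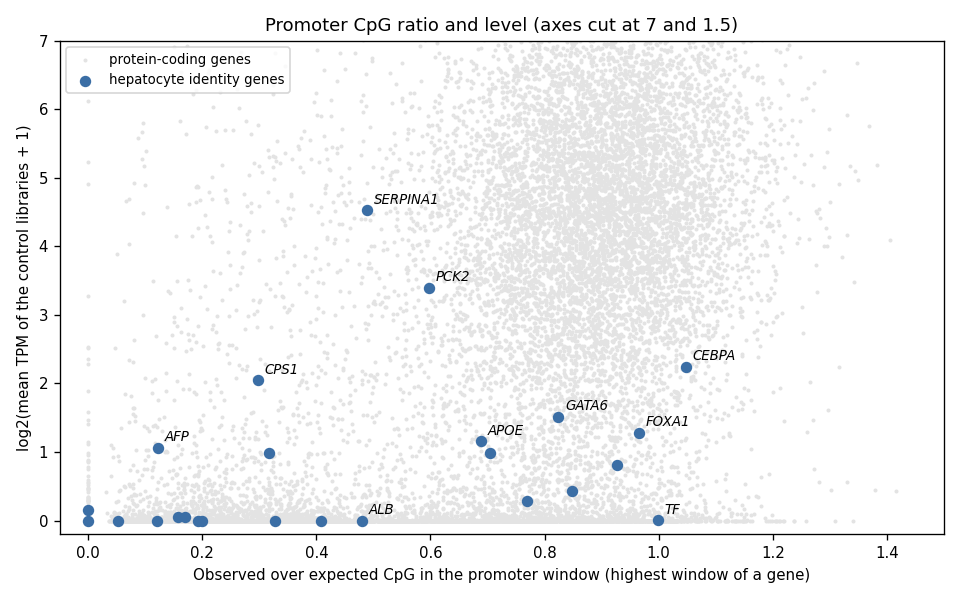
Level in control cells as log2(mean TPM + 1) (vertical axis) against the observed over expected CpG ratio of the promoter window (horizontal axis), for protein-coding genes (grey) and the 25 identity genes with a window (blue). *SERPINA1*, the highest identity gene, lay at a ratio of 0.488, and *ALB*, listed at 0, at 0.481.

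Matches to short motifs on either strand are descriptions and not proof of a site. TATAAA occurred in the windows of 7 of the 25 identity genes (28.0%), which were *NR5A2*, *AFP*, *CYP3A4*, *CYP2E1*, *G6PC1*, *CEBPA* and *FOXA3*, against 12.4% of protein-coding genes. Counted by window, TATAAA was in 20.6% of the windows of identity genes and in 11.5% of all windows. TGTTTAC, bound by FOXA factors, occurred in 2 genes (8.0%, *APOA2* and *NR5A2*), against 3.79% of protein-coding genes. CAAAGTCCA, bound by HNF4 factors, occurred in 1 (4.0%, *AHSG*), against 0.489%. Counted by window, the shares of these 2 motifs were 5.88% and 2.94% in the identity genes, against 3.42% and 0.384% of all windows. TTGCGCAA, bound by C/EBP factors, occurred in none of the 34 windows and in 0.151% of all windows. No matches to different motifs overlapped in these windows.

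The levels of silent and low genes were also set beside those of their neighbours on the chromosome. Of the 15 genes listed at 0 in every library, 9 (60.0%) had a next protein-coding neighbour at 1 TPM or more, against 49.4% of the 4171 protein-coding genes listed at 0, a count made, like the choice of the examples, after the data were seen. *FGB*, at 0.34 TPM in 1 library, lay 12611 bases from *PLRG1*, a splicing factor gene with 67.4 TPM. *HP*, listed at 0, overlapped *TXNL4B* (11.8 TPM) without a shared exon. *APOE*, which was above 0 in every library, lay 2102 bases from *TOMM40*, a subunit of the mitochondrial import pore with 223 TPM. *FGB* and *APOE* are not among the 15 genes.

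Markers of endothelial, mesenchymal and biliary or epithelial cells were read to place these levels. Hepatocytes are epithelial cells too, so *KRT8* and *KRT18* in the last list need not mark another cell type. Of 15 endothelial markers, 4 reached 1 TPM in control cells. *ENG* (64.5 to 85.1 TPM in control libraries), *EGFL7* and *ROBO4* were the highest, while *KDR* and *ERG* were listed at 0 in all libraries and the defining endothelial genes *PECAM1* and *CDH5*, named after their values were seen, reached at most 0.01 and 0.06 TPM. The summed endothelial markers were 89.8 to 142 TPM in control and 89.8 to 125 TPM in knockdown libraries, and limma called 0 of the 3 tested, with 0 at an unadjusted p under 0.05. Of 15 mesenchymal markers, 10 reached 1 TPM, led by *VIM*, *SPARC* and *THY1*, with *POSTN* listed at 0. Their sum was 5440 to 5656 TPM in control and 5770 to 6210 TPM in knockdown libraries, and 1 of 10 tested was called, *ACTA2*, which rose by 2.04 on the log2 scale (limma adjusted p = 0.00444). The share called among all genes tested was 1.04%. An unadjusted p under 0.05 was found for 6 of the 10, against 2350 of all 14020 genes tested. Fitted values of the 10 were above control for 6 and below for 4. Among those not called, *PDGFRB* and *TAGLN*, named after their values were seen, and *THY1* and *SPARC* had log2 fold changes of −1.22, −0.93, −0.54 and −0.30. For these genes every knockdown library lay below every control library. *VIM*, which supplied most of the sum and was not called either, went the other way. Its log2 fold change was 0.25, with every knockdown library above every control library. The groups did not overlap for 6 of the 10, against 23.3% of all genes tested. Of 9 biliary or epithelial markers, 6 reached 1 TPM, with *KRT8*, *KRT18* and *KRT19* highest and *CFTR* and *CDH1* listed at 0. Their sum was 2673 to 3969 TPM in control and 1978 to 2330 TPM in knockdown libraries, and *KRT8* and *KRT18* were called, with log2 fold changes of −1.18 and −1.03 (limma adjusted p = 0.0354 and 0.0292). These 2 calls among 6 tested compare with 1.04% of all genes tested. Of the 6, 4 had an unadjusted p under 0.05, against 2350 of all 14020 genes tested. The groups did not overlap for 4 of the 6, against 23.3% of all genes tested. Fitted values were above control for 3 and below for 3. *KRT19* and *SPP1*, the latter named after its values were seen, had log2 fold changes of 0.84 and 0.69 with every knockdown library above every control library, and neither was called. The sum of the 38 identity genes was 42.6 to 57.6 TPM in control and 52.5 to 67.4 TPM in knockdown libraries. The part of the cells that carry these markers in the levels of the identity genes was not tested.

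**Figure D5:**
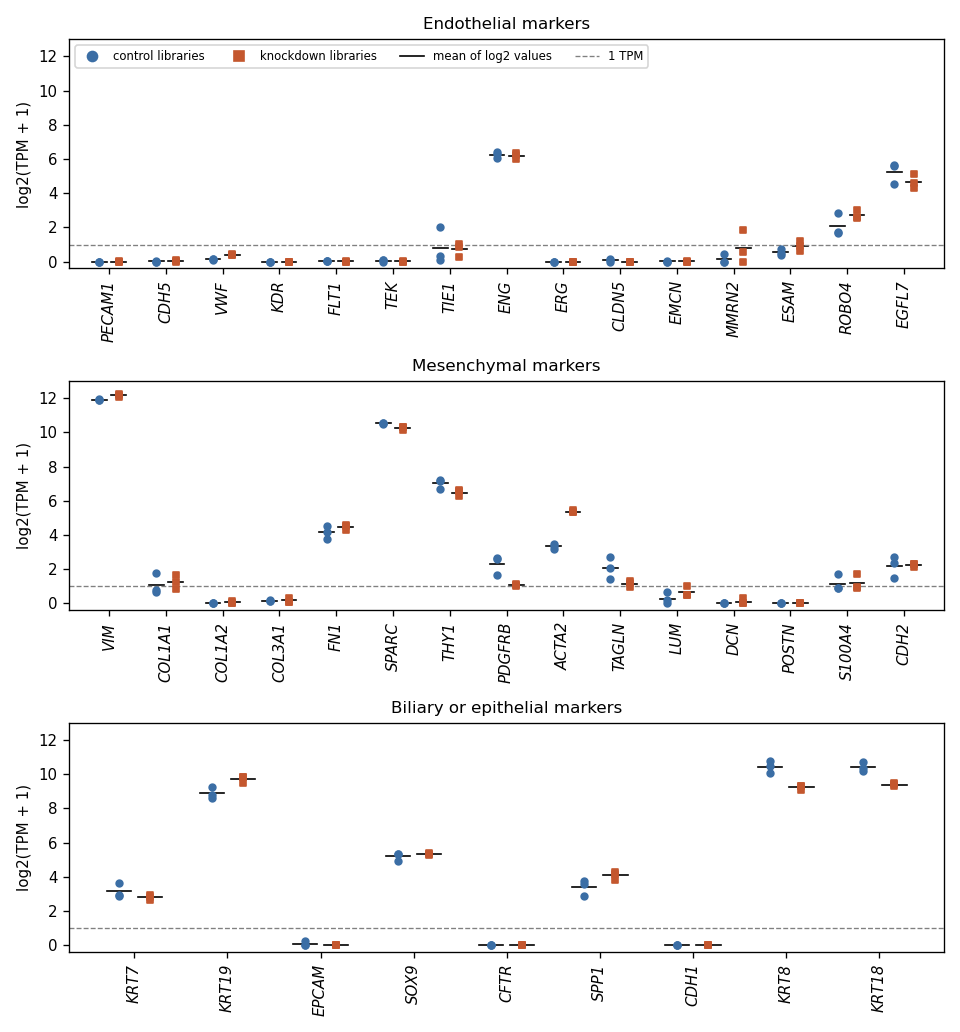
Level of endothelial, mesenchymal and biliary or epithelial markers as log2(TPM + 1) (vertical axis), with 1 point per control (circles) and knockdown library (squares), a line at each group's mean and a dashed line at 1 TPM. *VIM*, *SPARC*, *KRT8* and *KRT18* lie far above every hepatocyte identity gene, while *KDR*, *ERG*, *POSTN*, *CFTR* and *CDH1* lie at 0 in all libraries.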

How the data were processed

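RNA of SK-Hep1 cells was poly-A-selected and sequenced in 6 libraries, 3 control and 3 knockdown, grouped by their titles. The authors deposited gene-level TPM, given to 2 decimals. The methods name fastp, STAR and RSEM with GENCODE, whereas the submitters' processing notes name fastp, HISAT2 2.0.5 and hg38. The TPM keep no read number, and the depth and its precision are unknown. All 62700 identifiers matched GENCODE v44.

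Values were analysed as log2(TPM + 1), a scale that understates changes of low genes, with limma 3.58.1 in R 4.3.3 (lmFit and eBayes with trend, 2-sided), for 14020 genes whose mean reached 1 TPM. Genes with an adjusted p (Benjamini–Hochberg) under 0.05 were called. Levels, overlaps and promoter windows were computed in Python 3.11.15 with pandas 2.3.3, numpy 2.4.6 and scipy 1.17.1. The exact permutation test ran over the 6 libraries. The fit was tested on simulated data.

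The members and lists were chosen with earlier results of these data known. Every member was named, with all libraries where that mean was reached and the highest library for others, beside the 5 highest other hepatocyte genes, and the 3 highest and the silent genes of each marker list. Genes outside this rule are said to be so. Some genes and a motif of this plan are not reported here.

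Alternatives were pseudocounts of 0.1 and 5, no filter or 5 TPM, median-of-ratios and quantile scaling, TPM rescaled after leaving out mitochondrial genes, robust or trend-free eBayes, a replicate block, arrayWeights, removal of the trend with GC content (loess, span 0.3), each library left out and other level limits.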

Additional observations from a re-analysis of the deposited data

How the results depend on the processing

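The count of identity genes called was 0 in 16 of the 19 alternatives, among them each fit without 1 library. It was 2 of the 7 tested with arrayWeights (*GATA6* and *SERPINA1*), a fit that called 3218 of all 14020 genes tested. It was 1 with a replicate block (*SERPINA1*, limma adjusted p = 0.0489), where 861 of the 14020 were called. With a replicate block and the GC trend removed it was 1 (*SERPINA1*), where 1141 were called. The correlations of same-numbered libraries (0.410, 0.0359 and 0.279) did not all exceed 0.1, and the numbers were not taken as pairs. Those of differently numbered libraries ran from −0.355 to 0.111. These values do not settle whether the replicate numbers pair the libraries. Of the other hepatocyte genes, 8 were called with arrayWeights, 1 with a replicate block, 1 with the GC trend removed, 1 with both (*IGFBP1* in these 3 fits) and 0 to 1 without 1 library (*ABCC2*, without control replicate 3).

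Of all genes tested, 146 were called, 52 higher and 94 lower. The split was 60 and 69 with median-of-ratios scaling and 78 and 83 with quantile normalization. The count was 13 without a filter, 3218 with arrayWeights, 861 with a replicate block, 1189 with the GC trend removed, 1141 with both, and 12 (without control replicate 2) to 489 (without control replicate 1) with 1 library left out.

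The 10 identity genes at 1 TPM or more in control cells became 13 at a limit of 0.5 TPM and 12 with TPM rescaled without mitochondrial genes. They became 5 at a limit of 2 TPM, 5 with 1 TPM required in every control library, 6 in knockdown libraries, and 9 to 11 without 1 library.

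Fold changes that turned in direction, none of them called, were those of *FOXA1* (−0.011 with quantile normalization, −0.25 with arrayWeights), *CPS1* (−0.024 with a pseudocount of 5, −0.048 with quantile normalization, −0.026 with the GC trend removed, with or without the replicate block) and, without 1 library, *FOXA1* (−0.056 to 0.35), *GATA4* (−0.17 to 0.10) and *CPS1* (−0.43 to 0.30). The cause was not tested. The interval of a fold change at these levels, with 3 libraries per group and unknown depth, limits what can be seen.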
